A study of Homo sapiens with 3 samples.

Results

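LINE and LTR clusters were the places outside exons where RNA crosslinked to DICER came from, or lay opposite, a LINE or an LTR retrotransposon. A cluster is a stretch of overlapping reads called by the authors. Members were all clusters off the mitochondrial genome with a LINE or LTR annotation on either strand and no Alu annotation on either strand. They also had no exon and no noncoding transcript annotation on their own strand. They numbered 313 of 11577 clusters in replicate 1 (2.70%), 1088 of 18065 in replicate 2 (6.02%), 273 of 5099 in replicate 3 (5.35%) and 207 of 8469 in a series-wide list (2.44%). The study used the Flp-In HEK293 T-Rex line, derived from human embryonic kidney, carrying a transgene for FLAG-tagged DICER. All 3 samples were PAR-CLIP libraries of this 1 group, made with RNase T1. In PAR-CLIP a photoreactive uridine analogue links RNA to the bound protein under ultraviolet light, and the linked uridines read as T-to-C conversions. No library without the tagged protein was used here, and the labels do not say whether replicates were separate cultures, so the spread between them may be technical.

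DICER, an RNase III endonuclease, trims double-stranded RNA and precursor miRNA hairpins to short duplexes. LINEs are retrotransposons without terminal repeats: L1 is the family still active in humans, while L2 and CR1 are ancient and no longer move. LTR elements are remnants of endogenous retroviruses, each with an internal part between long terminal repeats, which often survive alone. Most copies lie in introns or between genes, and copies of one element in opposite orientation can pair into a hairpin.

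The annotation named a LINE or LTR element in 486, 1509 and 380 clusters of replicates 1, 2 and 3. Alu annotation removed 51, 174 and 52 of them, and exon or noncoding transcript annotation on the same strand removed 122, 247 and 55. Among the removed clusters were 11, 15 and 9 on miRNA hairpins, the known products of the pathway. They are shown here because they are the clearest case of LINE sequence in a DICER substrate, although the rule leaves them out. In all, 17 hairpins with LINE or LTR sequence had a cluster, 5 of them in all 3 replicates, and 7 carried L2 on their own strand. The annotation put the same family on both strands for 5 of the 17. RefSeq mature sequences (GRCh38.p14) are given 5′ to 3′ with the seed, bases 2 to 8, in capitals.
hsa-miR-28-3p: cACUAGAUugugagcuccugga
hsa-miR-708-3p: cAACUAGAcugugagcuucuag
hsa-miR-708-5p: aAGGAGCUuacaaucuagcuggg
hsa-miR-582-5p: uUACAGUUguucaaccaguuacu
hsa-miR-582-3p: uAACUGGUugaacaacugaacc
hsa-miR-374a-3p: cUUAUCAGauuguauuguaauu
hsa-miR-374b-3p: cUUAGCAGguuguauuaucauu

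Of these, the miR-28 and miR-708 hairpins carried L2 on both strands and the miR-582 hairpin carried CR1 on both. The 3p strands of miR-28 and miR-708 shared a run of 8 nt that starts at base 9 of the first and base 10 of the second. Within miR-582, the 5p and 3p strands held 18 nt in a row that are complementary. Within miR-708, the longest such run was 5 nt. The hairpin of hsa-mir-374a had 2676, 311 and 100 conversions in replicates 1, 2 and 3, that of hsa-mir-374b had 1397, 958 and 510, and that of hsa-mir-28 had 40, 112 and 21. In hsa-mir-708 only replicate 1 had clusters, with 73 conversions. Of the 8 hairpins listed for reported L2 sequence, MIR28, MIR151A, MIR374A and MIR708 had clusters, and MIR95, MIR325, MIR493 and MIR545 had none in any replicate.

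Conversions of the members were dominated by a single cluster that is also a tRNA repeat. It lies in an L1M4 element that holds a valine tRNA repeat, within the intron of AC073283.4, a noncoding gene (hg19 chromosome 2, 47507893 to 47507935, minus strand). Its 6913, 189444 and 79062 conversions in replicates 1, 2 and 3 were 49.7%, 96.0% and 92.7% of all member conversions. Without it the members held 6997, 7939 and 6206 conversions, which is 0.536%, 0.748% and 1.04% of each list. A small RNA annotation of any kind, on either strand, was carried by 17, 14 and 4 members, so members that only lie opposite a small RNA are included. A tRNA repeat on their own strand was carried by 11, 12 and 4. Results are therefore counted by cluster, and those that differ by conversions or without these members are given both ways.

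Apart from that cluster, most members were small and thinly read, and the medians of all other clusters were close. The median member had 11, 5 and 17 conversions in replicates 1, 2 and 3, against 13, 5 and 19 in all other clusters off the mitochondrial genome. On the log2 scale the median of members minus others was -0.24, 0 and -0.16, a mean of -0.13 ± 0.12 (SD, n = 3; p = 0.5 by an exact permutation of signs, and 0.536 after Benjamini-Hochberg adjustment over 15 such two-sided tests). It was -0.39 among clusters with 3 or more distinct reads and -0.03 with exon clusters kept. With 3 replicates this exact test cannot go below 0.25, so none of its results can pass 0.05. The median member was 29, 27 and 26 nt long and had 2 distinct reads in each replicate. Other clusters had medians of 32, 29 and 27 nt and of 3, 2 and 2 distinct reads. Only 143 of 313, 131 of 1088 and 32 of 273 members had 3 or more distinct reads, a larger part in replicate 1 than in the others. Members at 100 or more conversions numbered 10, 8 and 7. The shares of other clusters at these limits of reads and conversions were not counted, so whether either count is particular to the members is not known.

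LINE elements made up most of the members. Clusters with LINE annotation alone numbered 205, 762 and 175 in replicates 1, 2 and 3, or 65.5%, 70.0% and 64.1% of members, and clusters with LTR annotation alone numbered 106, 320 and 98. The LINE share exceeded the LTR share by 33.5 percentage points ± 6.41, in 3 of 3 replicates (SD, n = 3; exact sign-flip permutation p = 0.25, adjusted p = 0.288). It was 21.3 in the series-wide list, 85.5 by conversions, and 24.5 by conversions without small RNA. The genome holds more LINE than LTR sequence, and the shares were not divided by the length of each class. L1 was the leading family with 161, 549 and 122 clusters, or 51.4%, 50.5% and 44.7% of members. L2 had 39, 185 and 47, and the mammalian LTR retrotransposons ERVL-MaLR 47, 137 and 36, so ERVL-MaLR was ahead of L2 in replicate 1 and behind it in replicates 2 and 3. ERV1 had 35, 86 and 27 clusters and ERVL 25, 84 and 28. CR1, the relic LINE family that includes L3, had 5, 29 and 4, and ERVK, the family of the youngest human retroviruses, had 4, 19 and 8.

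Clusters lay more often on the strand opposite the element than on its own strand. Sense means that the cluster is on the strand of the element, and antisense that it is on the other. The strands of the element copies in the transcribed genome were not counted, and the uridine content of the strands was not compared. The shares are therefore counts of clusters and not a measure of preference, also for the families and gene contexts below. Sense clusters numbered 104, 393 and 114 in replicates 1, 2 and 3, antisense clusters 205, 686 and 158, and 4, 9 and 1 had elements on both strands. The sense share of members was lower than the antisense share, with differences of -32.3, -26.9 and -16.1 percentage points and a mean of -25.1 ± 8.23, in 3 of 3 replicates (SD, n = 3; exact sign-flip permutation p = 0.25, adjusted p = 0.288). Counted by conversions the difference turned to 76.1 points in favour of sense, since the AC073283.4 cluster is sense. Without members that carry a small RNA it was -26.3 by clusters and -26.4 by conversions.

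L1 held most of the antisense clusters, while L2 was sense more often than L1. L1 had 32 sense and 128 antisense clusters in replicate 1, 129 and 419 in replicate 2, and 35 and 87 in replicate 3. The sense share of L1 was thus 20.0%, 23.5% and 28.7%, a mean of 24.1% ± 4.37 (SD, n = 3). L2 had 18 sense and 21 antisense clusters in replicate 1, 111 and 72 in replicate 2, and 30 and 17 in replicate 3, or 46.2%, 60.7% and 63.8% sense. The L2 values therefore stood on both sides of 50%, with replicate 1 the lowest, and none of them overlapped those of L1. L1 minus L2 was -32.8 percentage points ± 5.84, with the same sign in 3 of 3 replicates (SD, n = 3; exact sign-flip permutation p = 0.25, adjusted p = 0.288). The difference was -19.9 among clusters with 3 or more distinct reads and -48.4 by conversions without small RNA. The value of -48.4 includes the sense L2 site in MYO6, with 559 conversions from 3 distinct reads in replicate 1. How far that site moved it was not tested. By conversions with all members, L1 minus L2 turned to 24.1, again through the AC073283.4 cluster.

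**Figure D1:**
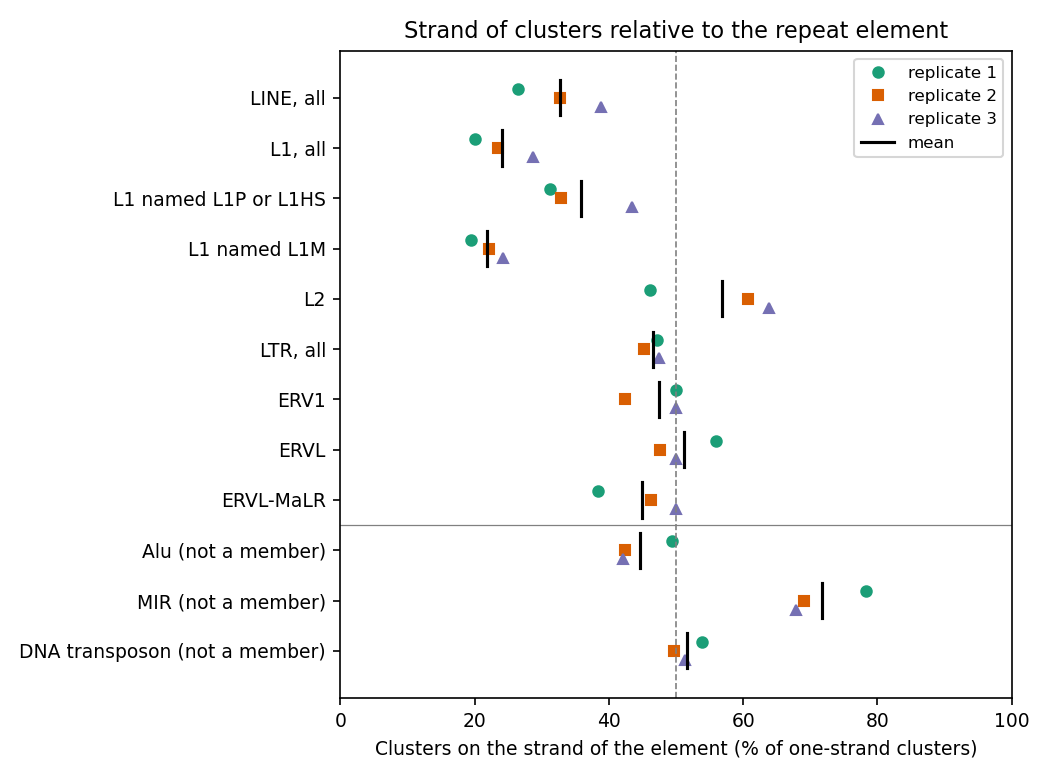
Each point is the percentage of one-strand clusters that lie on the strand of the element, per replicate, with the mean as a black bar and 50% as a dashed line. L1 stays between 20.0% and 28.7%, L2 between 46.2% and 63.8%, and LTR clusters together between 45.3% and 47.4%. Alu, MIR and DNA transposon clusters are shown under the horizontal line for comparison.

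More antisense than sense clusters were counted in older and in younger L1 elements. Names that begin with L1M, given to elements shared among mammals, had 27 sense and 112 antisense clusters in replicate 1, 103 and 364 in replicate 2, and 23 and 72 in replicate 3. Names that begin with L1P or L1HS, given to primate elements, had 5 and 11, 21 and 43, and 10 and 13. The sense share was 21.9% ± 2.40 for L1M and 35.8% ± 6.65 for the primate elements, a difference of 13.95 percentage points ± 4.64, higher in 3 of 3 replicates (SD, n = 3; exact sign-flip permutation p = 0.25, adjusted p = 0.288). Among single elements, L1MA5 had no sense and 16 antisense clusters in replicate 1, 0 and 10 in replicate 2, and 1 and 2 in replicate 3. L1M2 had 0 and 7, 1 and 16, and 0 and 2. The most frequent name in replicates 2 and 3 was L2a, with 7 sense and 5 antisense clusters in replicate 1, 47 and 32 in replicate 2, and 12 and 6 in replicate 3, where a cluster with L2a on both strands counts under each. Young L1 copies are nearly identical to each other, and whether their reads belong to other copies was not tested.

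LTR clusters were somewhat fewer in sense than in antisense. They were sense in 47.1%, 45.3% and 47.4% of one-strand clusters, with 49 sense and 55 antisense in replicate 1, 143 and 173 in replicate 2, and 46 and 51 in replicate 3. LINE clusters were less often sense, at 26.5%, 32.7% and 38.9%, and the difference of LINE minus LTR was -13.9 percentage points ± 6.15 with the same sign in 3 of 3 replicates (SD, n = 3; exact sign-flip permutation p = 0.25, adjusted p = 0.288). It became 53.2 by conversions and 0.343 by conversions without small RNA, so it was present in numbers of clusters and not in conversions. ERV1 was 47.5% ± 4.42 sense, ERVL 51.2% ± 4.32 and ERVL-MaLR 44.9% ± 5.98 (SD, n = 3). Internal parts, which hold the retroviral genes, had 14 sense and 9 antisense clusters in replicate 1, 28 and 33 in replicate 2, and 9 and 8 in replicate 3. The terminal repeats themselves, which hold the promoter, were sense in 45.0% ± 1.18 (SD, n = 3). ERVK was too sparse for a share, with 4 sense and 0 antisense clusters in replicate 1, 6 and 12 in replicate 2, and 2 and 6 in replicate 3.

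Other repeats under the same exon rule did not all share the pattern of L1. Alu clusters, from the SINE that L1 mobilises, were sense in 49.4%, 42.4% and 42.1%. The sense share of the members minus that of Alu was -7.28 percentage points ± 7.86, at -15.7, -5.94 and -0.167 in replicates 1, 2 and 3 (SD, n = 3; exact sign-flip permutation p = 0.25, adjusted p = 0.288). The mean is thus smaller than its SD, and in replicate 3 the shares nearly coincide. MIR, an ancient SINE that L2 is thought to have mobilised, was sense in 78.2%, 69.1% and 67.9%, and DNA transposons in 53.8%, 49.7% and 51.4%.

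No difference in strength between sense and antisense members could be resolved. Their median conversions were 11.5 and 11 in replicate 1, 5 and 5 in replicate 2, and 14 and 18 in replicate 3. The difference of median log2 conversions, sense minus antisense, was 0.06, 0 and -0.36, a mean of -0.10 ± 0.23 (SD, n = 3; exact sign-flip permutation p = 1, adjusted p = 1), and it changed sign without replicate 3, at 0.03. Among clusters with 3 or more distinct reads it was -0.36. Converted positions were counted per length. L1 clusters had a median of 4.04 ± 0.354 converted positions per 100 nt in sense and 3.79 ± 0.148 in antisense, and L2 clusters 3.84 ± 0.288 and 3.85 ± 0.148 (SD, n = 3). The median cluster of these groups had 1 converted position in every replicate, except 1.5 for sense L1 in replicate 1.

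In each replicate the most frequent place of a member was an intron read in the direction of the gene. A same-strand intron held 144, 649 and 163 members in replicates 1, 2 and 3, or 46.0%, 59.7% and 59.7%. In the series-wide list it held 78 of 207 (37.7%). That was fewer than the 82 (39.6%) with no gene on either strand and none near on their own strand. A further 110, 297 and 76 members of the replicates had no gene on either strand and none near on their own strand. Another 39, 102 and 21 lay opposite a gene, and 20, 40 and 13 lay near one. Antisense members were in same-strand introns for 48.8%, 63.3% and 63.9%, and sense members for 41.3%, 53.2% and 53.5%. The difference, sense minus antisense, was -9.31 percentage points ± 1.63, with the same sign in 3 of 3 replicates (SD, n = 3; exact sign-flip permutation p = 0.25, adjusted p = 0.288). It was -2.23 among clusters with 3 or more distinct reads, -4.98 with exon clusters kept, and -1.73 in the series-wide list, so its size depends on which clusters are counted. By conversions it reversed to 32.8, and by conversions without small RNA it was -14.9.

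**Figure D2:**
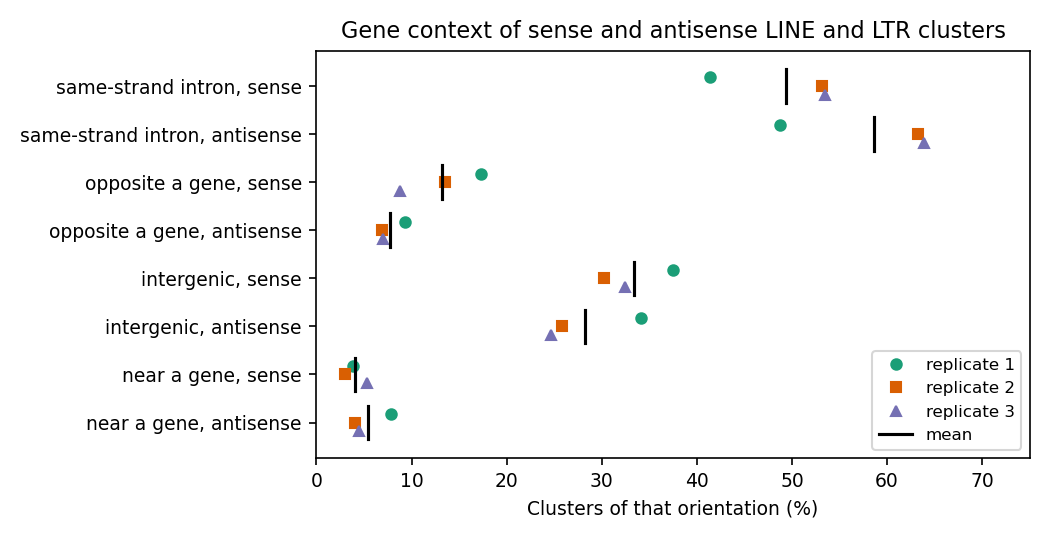
Points give the percentage of sense or antisense members in each gene context per replicate, with the mean as a black bar. In each replicate the antisense points for same-strand introns (48.8% to 63.9%) lie to the right of the sense points (41.3% to 53.5%).

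L1 clusters were mostly antisense inside and outside introns, and LTR clusters were mostly antisense inside introns and more evenly split outside. Within same-strand introns L1 was sense in 22.4% ± 4.24 of clusters, and elsewhere in 26.5% ± 5.49 (SD, n = 3), a difference that was not tested. LTR clusters in same-strand introns were sense in 29.3%, 39.6% and 36.4%, and elsewhere in 58.7%, 51.3% and 56.6%. In the series-wide list they were sense in 34.6% within introns, and 26 were sense and 26 antisense elsewhere. The values of the replicates did not overlap, and the difference, introns minus elsewhere, was -20.5 percentage points ± 8.89 in 3 of 3 replicates (SD, n = 3; exact sign-flip permutation p = 0.25, adjusted p = 0.288). Among ERVL-MaLR clusters, 3 of 18 sense and 15 of 29 antisense lay in such introns in replicate 1, 25 of 63 and 47 of 73 in replicate 2, and 7 of 18 and 10 of 18 in replicate 3. Among L1, L2, ERV1, ERVL and ERVL-MaLR, L2 was in same-strand introns most often, with 15 of 18 sense clusters in replicate 1, 70 of 111 in replicate 2 and 22 of 30 in replicate 3, and 16 of 21, 55 of 72 and 14 of 17 antisense clusters. First introns were named for 26.4%, 37.9% and 36.8% of the members in introns, against 28.2%, 35.8% and 35.8% of intron clusters outside repeats. In same-strand introns a cluster may belong to the unspliced gene transcript or to a separate transcript of the element, and these cannot be told apart.

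Members recurred in few places. A cluster is called recurrent when both other replicate lists hold a cluster that overlaps it by at least 1 nt on the same strand. A recurrent place is thus counted in each of the 3 lists, and the 3 values of recurrence are not independent. Here and below, their SD, common sign and p do not measure a spread between independent replicates. This held for 28 of 313 members in replicate 1 (8.95%), 24 of 1088 in replicate 2 (2.21%) and 25 of 273 in replicate 3 (9.16%). Over all clusters off the mitochondrial genome it held for 11.2%, 7.1% and 26.2%, and in the series-wide list for 28 of 207 members (13.5%) against 15.3%. Members minus all other clusters was -8.54 percentage points ± 8.35, at -2.37, -5.21 and -18.0 in replicates 1, 2 and 3 (SD, n = 3; exact sign-flip permutation p = 0.25, adjusted p = 0.288). The gap was thus largest in replicate 3. It was -1.81 in the series-wide list, and overlap of the 2 remaining replicates gave -14.2 without replicate 1, -12.9 without replicate 2 and -10.9 without replicate 3. Intron clusters outside repeats recurred in 11.6%, 4.67% and 18.2%, and members minus these was -4.73 percentage points ± 3.78, at -2.63, -2.47 and -9.09 (SD, n = 3; exact sign-flip permutation p = 0.25, adjusted p = 0.288). Alu clusters recurred in 6.01%, 1.55% and 5.14%.

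**Figure D3:**
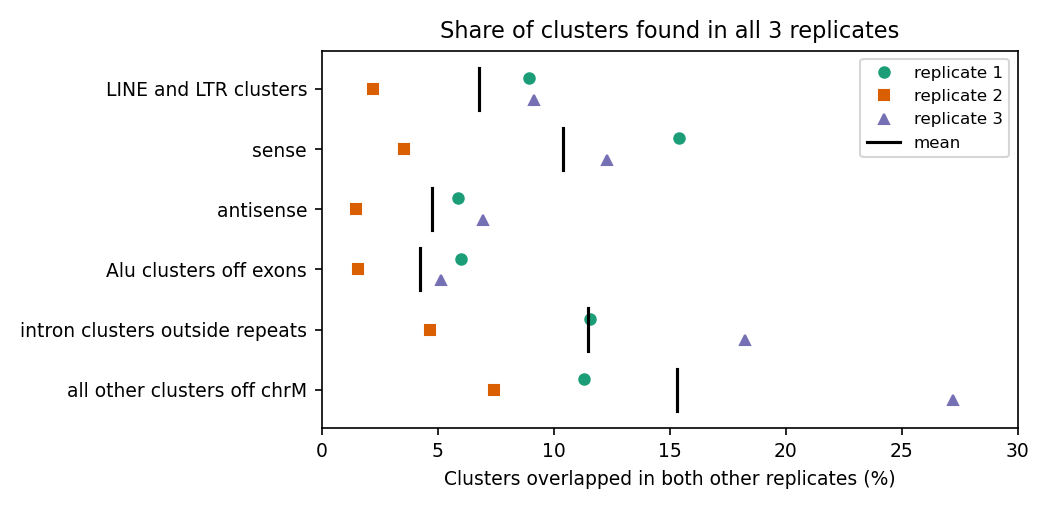
Points give the percentage of clusters overlapped in both other replicates, per replicate, with the mean as a black bar. LINE and LTR clusters (2.21% to 9.16%) lie below all other clusters off the mitochondrial genome (7.42% to 27.2%) in each replicate, and sense members lie above antisense members.

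Sense members recurred more often than antisense ones. The share was 15.4%, 3.56% and 12.3% of sense members and 5.85%, 1.46% and 6.96% of antisense members in replicates 1, 2 and 3. The difference was 5.65 percentage points ± 3.72, higher in 3 of 3 replicates, and without small RNA it was 6.92, 1.54 and 3.54 (SD, n = 3; exact sign-flip permutation p = 0.25, adjusted p = 0.288 for both). Members outside same-strand introns recurred in 10.7%, 3.64% and 14.5%, and those inside in 6.94%, 1.23% and 5.52%. That difference was 5.05 percentage points ± 3.50, also in 3 of 3 replicates (SD, n = 3; exact sign-flip permutation p = 0.25, adjusted p = 0.288). Recurrent sense members numbered 16, 14 and 14, and recurrent antisense members 12, 10 and 11. These are overlapping places in the 3 lists, so a common sign in 3 replicates is not 3 independent observations.

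Merged over the replicates, the members formed 1553 loci, of which 1457 were seen in 1 replicate, 72 in 2 and 24 in all 3. Other clusters were not merged in this way, so these counts have no share over all clusters to be compared with. Of the 24, 13 were sense and 11 antisense, 8 lay in same-strand introns, and 3 carried a tRNA repeat. Among the same 24, 12 had no gene on either strand and none near on their own strand. LTR elements gave 13 of the 24 from 472 loci (2.75%), and LINE elements 11 from 1073 (1.03%), a difference that was not tested. L1 had 9 of 778, ERVL-MaLR 6 of 205, ERVL 4 of 125, ERV1 3 of 126, L2 1 of 261 and CR1 1 of 34. Over the 21 loci without small RNA, log2 conversions correlated across loci with Pearson r = 0.751 and Spearman rho = 0.758 between replicates 1 and 2, 0.682 and 0.738 between 1 and 3, and 0.814 and 0.685 between 2 and 3. The points share their libraries, and these values are a description.

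By summed conversions, the strongest of these loci without a tRNA repeat was antisense to an MLT1B element of the ERVL-MaLR family in the intron of NBEA, which encodes the scaffold protein neurobeachin (chromosome 13, 35537587 to 35537648, plus strand). It had 352 conversions from 62 distinct reads in replicate 1, 609 from 127 in replicate 2 and 275 from 24 in replicate 3. Its values differed by less than 3-fold between replicates, and it stayed the member with the most conversions after AC073283.4 in replicates 2 and 3. An antisense MLT1A0 element in MOB2, which encodes a partner of NDR kinases, lay in the same orientation (chromosome 11, 1498872 to 1498906, minus strand). It had 57, 234 and 159 conversions from 3, 21 and 8 distinct reads, with replicate 1 the lowest. Another antisense ERVL-MaLR site lay opposite MLT1H2 in the noncoding gene RP11-1E3.1 (chromosome 5, 96908078 to 96908120, plus strand). It had 43, 228 and 178 conversions, 420, 1025 and 605 reads and 61, 90 and 68 distinct reads. Replicate 1 was the lowest in each, by a wider margin in conversions than in distinct reads.

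Among the strongest sites, the sense ones without a tRNA repeat came from L3, L2 and THE1D. The L3 site, of the CR1 family, lay opposite the gene C15orf27 (chromosome 15, 76486431 to 76486473, minus strand) and had 313, 249 and 101 conversions from 51, 48 and 10 distinct reads. The THE1D site lay opposite PHEX, a peptidase gene of phosphate balance (chromosome X, 22080279 to 22080310, minus strand). With 73, 119 and 83 conversions from 63, 116 and 69 distinct reads, it varied less between replicates than the NBEA, L3, L1ME3 and MOB2 sites. The THE1D site held 514, 485 and 357 reads, so its reads far outnumbered its conversions. The L2 site in the intron of MYO6, which encodes the motor protein myosin VI (chromosome 6, 76546718 to 76546738 in the series-wide list, plus strand), had 559, 37 and 30 conversions. These came from only 3, 2 and 2 distinct reads, so few distinct reads lie behind the high value of replicate 1. A second sense L2 site, L2a in BCL2L12, a gene of the BCL2 family (chromosome 19, 50174999 to 50175050, plus strand), had 42, 39 and 33 conversions from 7, 9 and 2 distinct reads. The clusters of replicates 2 and 3 there reached less far and carried no L2 annotation.

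Of the 9 L1 loci found in every replicate, 6 were antisense. The L1ME3 site (chromosome 1, 154354933 to 154354957, minus strand) had 217, 86 and 204 conversions from 104, 69 and 29 distinct reads. It held 3019, 1171 and 933 reads, so its reads far outnumbered its conversions. An antisense L1MB7 site (chromosome 17, 79840698 to 79840751, minus strand) had 28, 130 and 44 conversions from 8, 17 and 3 distinct reads, with replicate 2 the highest. L1ME1 in RPTOR, which encodes the mTOR complex subunit raptor, had 25, 9 and 23. The sense L1 sites that led by conversions were tRNA repeats: AC073283.4, an arginine tRNA repeat in L1PA16 with 238, 261 and 258 conversions from 184, 261 and 101 distinct reads (chromosome 8, 126631419 to 126631457, plus strand), and a glutamine tRNA repeat in L1MC3 with 9, 19 and 22. The arginine site carried no L1 annotation in replicates 1 and 2, and the glutamine site none in replicates 2 and 3, so neither is among the 24 loci. A valine tRNA repeat opposite L1PA4 (chromosome 1, 74272630 to 74272666, minus strand) had 227, 142 and 23 conversions.

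Apart from THE1D, the sense LTR sites found in every replicate had no gene on either strand and none near on their own strand. MLT2D, of the ERVL family, had 76, 10 and 17 conversions from 52, 38 and 6 distinct reads, MER76 had 53, 18 and 9, and MLT2C1 had 30, 22 and 10. In these ERVL sites replicate 1 was the highest. In the ERV1 family the internal part MER41-int had 21, 16 and 14 conversions, LTR39 in antisense had 9, 22 and 9, and MER39B had 3, 4 and 19. Reads outnumbered conversions at LTR39, with 55, 673 and 264 reads, and at MLT2D, with 367, 102 and 48. MLT1H, of the ERVL-MaLR family, had 14, 7 and 15, and a THE1C-int element with an arginine tRNA repeat had 37, 41 and 17. The antisense ERVL site at LTR16B1 had 1, 9 and 4. Of the 27 ERVK loci, 3 were seen in 2 replicates and none in all 3.

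**Figure D4:**
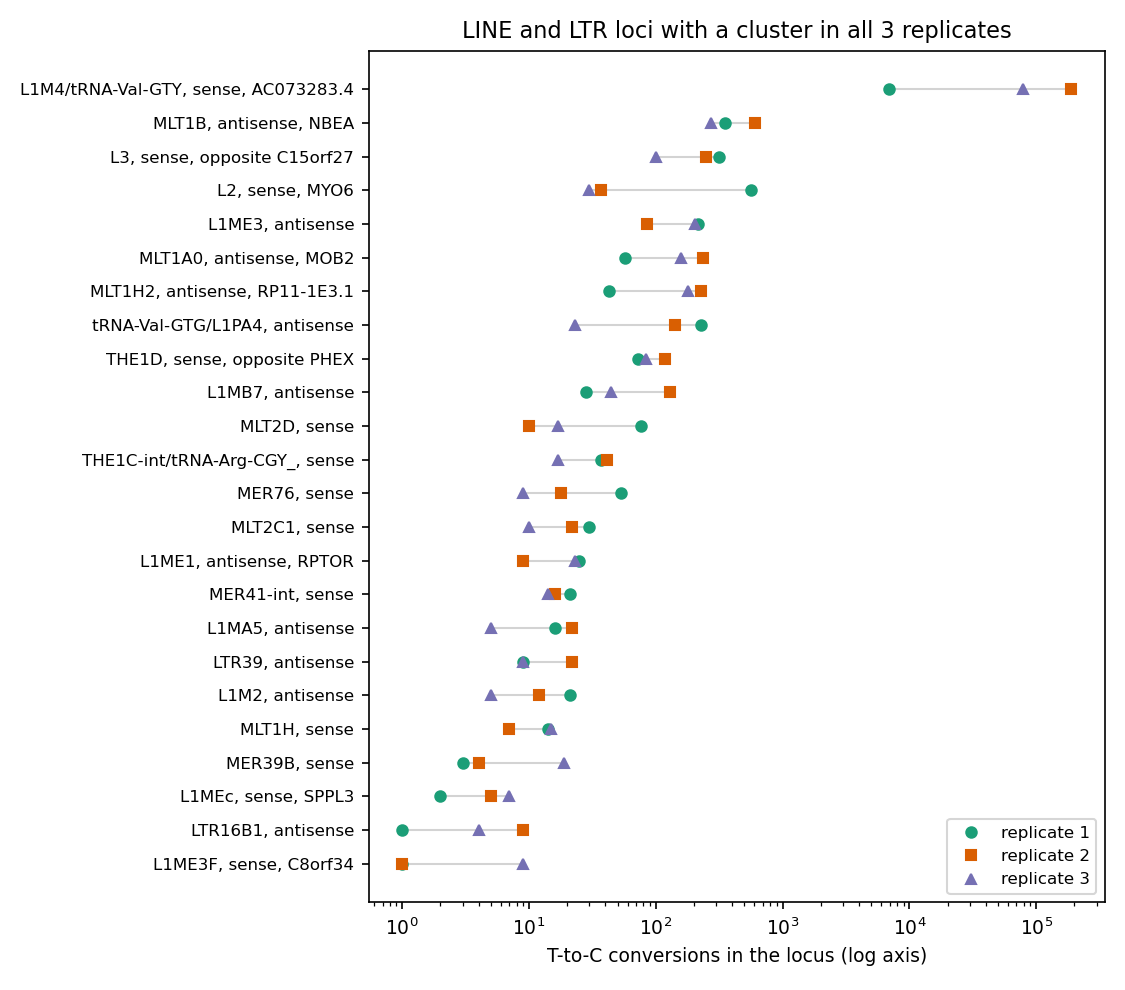
Conversions per replicate, on a log axis, at the 24 loci with a member in all 3 replicates, named by element, orientation and gene. The AC073283.4 locus with its tRNA repeat reaches 189444, the next 8 loci by summed conversions lie between 23 and 609, and the last 3 have 1 to 9.

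Clusters with elements on both strands were rare, at 4, 9 and 1 in replicates 1, 2 and 3. The one with the most conversions had L1PB3 on both strands and lay opposite MIR5591, a miRNA gene, and KLB, which encodes a coreceptor of FGF hormones (chromosome 4, 39413547 to 39413597, minus strand). It had 26 conversions from 3 distinct reads in replicate 1 and 27 from 8 in replicate 2, and no cluster in replicate 3. The miRNA itself is encoded on the other strand, so these reads are not from its annotated hairpin. A site with MER87B, of the ERV1 family, on both strands (chromosome 10, 67428666 to 67428693, minus strand) had 8 and 10 conversions in replicates 1 and 2. A site with MER31B and MLT2D on opposite strands in CHCHD3, a gene of the mitochondrial inner membrane, had 8 and 4. In replicate 2 alone, L2a on both strands in LARP1, which encodes an RNA-binding protein, had 6 conversions. Other miRNA names were of the MIR548 family and MIR3134, in 6 members off the hairpins, each seen in 1 replicate, with 3 to 43 conversions.

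Members in introns carried many gene names. The 144, 649 and 163 members in introns of replicates 1, 2 and 3 carried 167, 696 and 188 names. Overlapping genes and aliases of 1 gene count as separate names, so genes are fewer than names. In all 3 replicates 14 names occurred, some of them for the same clusters, such as RP11-1E3.1 and TCONS_00009467. Names of other intron clusters were not counted for comparison. No name had more than 3, 5 and 2 clusters. In the series-wide list 10 names had 2 clusters and none more. First among them were C12orf45, with 3, 2 and 0 clusters in the replicates, and INTS6-AS1, which shares its 1, 3 and 1 clusters with RPS4XP16, TCONS_l2_00006853 and TCONS_l2_00006854. INTS6-AS1 had 26, 7 and 32 conversions in these clusters. ZNF718, a zinc finger gene, had 2, 3 and 0 clusters with 142, 49 and 0 conversions.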

How the data were processed

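Per the labels, each replicate had its own PAR-CLIP library and 2 sequencing runs. Bowtie2 2.1.0 and hg19 are listed in the submitters' processing notes, and all coordinates are hg19. A cluster list for each replicate and another for the whole series were deposited by the authors. Each cluster has a count of T-to-C conversions, deposited without scaling to depth, an entropy score by the authors that was not used, and attribute text with reads, distinct reads and annotation of both strands. Per the file attributes the estimated false discovery rate is 5% and the replicate lists were filtered by length. Lists are compared as shares, since their depth and selection differ, and conversions mix binding with RNA abundance. Copies of 1 molecule cannot be told apart from other molecules with the same ends.

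Members, families and strands were read from the deposited annotation (Python 3.11.15, numpy 2.4.6, scipy 1.17.1). Clusters overlapped when sharing at least 1 nt on 1 strand. Each difference was computed per replicate and tested over the 3 replicates by exact two-sided sign-flip permutation. For recurrence the 3 values share their places and are not independent. Benjamini-Hochberg adjustment covered 15 tests, 7 of them added after the values were seen, so their common direction was known beforehand. Added for sense shares were members against Alu, L1P and L1HS against L1M, and LTR clusters inside against outside introns. Added for recurrence were members against intron clusters outside repeats, and members outside against inside introns. Sense against antisense recurrence was also added, with and without small RNA. Functions were tested on simulated clusters. Sites named were those with the most conversions or distinct reads, overall and by family and strand, in the series-wide list among those overlapped in all 3 replicates, with the genes of the most clusters and every miRNA name. ZNF718, RPTOR, LARP1, MER87B, CHCHD3, the single element names L1MA5, L1M2 and L2a, and the hairpins of miR-374b and miR-582 were named after their values were seen. The members and lists were chosen with earlier results of these data known. Sequences of the clusters were not analysed here.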

Additional observations from a re-analysis of the deposited data

How the results depend on the processing

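Of 75 alternative values for the 8 main comparisons, 67 kept their direction and 8 turned. Weighting by conversions turned the sense minus antisense share to 76.1 percentage points, LINE minus LTR sense share to 53.2, L1 minus L2 sense share to 24.1 and the intron share of sense minus antisense members to 32.8, all with the AC073283.4 cluster, which holds 49.7% to 96.0% of member conversions. Weighting by conversions without small RNA, chosen after the data were seen, turned only LINE minus LTR sense share among 5 comparisons, to 0.343, and the cause was not tested. The difference of median log2 conversions between sense and antisense members turned to 0.03 without replicate 3, to 0.0115 with the weaker clusters of each list, below its median conversions, left out and to 0.0875 in the series-wide list, and ranged from -0.181 to 0.0314 when 1 replicate was left out; the cause was not tested. Leaving out 1 replicate gave -29.6 to -21.5 for sense minus antisense, 29.9 to 36.1 for LINE minus LTR, -16.6 to -10.6 for their sense shares, -36.1 to -30.6 for L1 minus L2, -10.2 to -8.76 for introns and -14.2 to -10.9 for recurrence. The recurrence range counts overlap of the 2 remaining replicates, an easier condition, so the main value of -8.54 over 3 replicates lies outside it. No paired analysis between groups was possible because all samples form 1 group, so no replicate numbers are shared between groups. The differences themselves are taken within each replicate, and the sign-flip test is paired in that sense. The exact sign-flip test over 3 replicates cannot pass 0.05, so unchanged sides of that threshold say nothing about stability. The median of 2 distinct reads per member limits single sites, and a place without a cluster may be below the depth of that list.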
